A study of Homo sapiens with 6 samples.

Results

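Cytosolic ribosomal protein genes encode the proteins that, with ribosomal RNA, build the small (40S) and large (60S) subunits of the ribosome outside mitochondria. The members were chosen by symbol, as protein-coding genes named RPS or RPL plus a number, together with RPSA, RPLP0, RPLP1 and RPLP2 and without the RPS6 kinase genes. They numbered 86 of 58735 genes, with 34 small subunit and 52 large subunit genes. Of the 86, 81 passed the filter on low counts.

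RNA was sequenced from the established pancreatic cancer line AsPC-1, of human origin. Control cells carried an empty lentivirus on a wild-type background (Vector, n = 3 libraries), and the others carried a lentivirus that overexpressed MMP28, a secreted matrix metalloproteinase (OE-MMP28, n = 3). The promoter of the virus and the number of separate infections are not given in the sources used here, and nothing says that libraries came from separate cultures, so p-values measure only the spread between these libraries. All results come from 1 cell line, compared as bulk RNA.

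Each ribosome carries a single copy of most of these proteins, which are made in the cytoplasm, imported into the nucleolus and assembled there on ribosomal RNA. The mRNAs are among the most abundant of a dividing cell. Most begin with a C followed by a run of pyrimidines, the terminal oligopyrimidine (TOP) tract, through which the mTOR kinase and the protein LARP1 control their translation. Some genes have a paralogue, such as RPL22L1 for RPL22, whose product can take the partner's place. Loss of a copy of any of several members causes Diamond-Blackfan anaemia, an inherited failure of red cell production.

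The start of transcription is shown first for members that the results below turn on. Each stretch runs from 10 bases before to 20 bases after a RefSeq start on GRCh38.p14. Capitals mark a C plus at least 4 pyrimidines whose C lies within 10 bases of that start. For a gene with several starts, such as RPS27A, the start with the longest such tract is shown. The lines hold the members past the test for which the promoter table gave a window that could be printed, and then RPL22 and RPL26 as the partners of 2 of them.
RPL35A, chr3:197950180-197950209, plus strand: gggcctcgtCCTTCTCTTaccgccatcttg
RPL21, chr13:27251548-27251577, plus strand: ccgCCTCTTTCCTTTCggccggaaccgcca
RPS3, chr11:75399508-75399537, plus strand: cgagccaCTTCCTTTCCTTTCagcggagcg
RPS25, chr11:119018324-119018353, minus strand: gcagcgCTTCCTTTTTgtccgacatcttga
RPL22L1, chr3:170870176-170870205, minus strand: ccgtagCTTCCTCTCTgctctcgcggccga
RPS24, chr10:78033853-78033882, plus strand: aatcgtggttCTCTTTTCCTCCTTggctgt
RPS27A, chr2:55232668-55232697, plus strand: gggcctgcgcggcgttCTTCCTTTTCgatc
RPS29, chr14:49598691-49598720, minus strand: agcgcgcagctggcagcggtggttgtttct
RPL26L1, chr5:172958719-172958748, plus strand: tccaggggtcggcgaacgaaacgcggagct
RPL27, chr17:42998409-42998438, plus strand: gtgaaaggttagcggaagtgtccttctttc
RPL6, chr12:112409266-112409295, minus strand: gacggcgcgtgcactgtgttcctggtcctg
RPL22, chr1:6199576-6199605, minus strand: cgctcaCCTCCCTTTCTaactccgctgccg
RPL26, chr17:8383174-8383203, minus strand: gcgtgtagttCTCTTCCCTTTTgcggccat

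RefSeq gave promoter windows, from 250 bases before to 50 bases after a start, for 69 of the 86 members. Such a tract lay at the start of 59 of these 69 genes (85.5%), against 38.4% of the 27305 genes with a window. Counted over windows, 77.6% of 85 member windows and 33.5% of all 35116 windows held it. The letters CCGGAAG, the core read by ETS family factors, stood on either strand in 32.9% of member windows and in 10.3% of all windows. AANATGGC, the core read by YY1, stood in 12.9% and 6.58%, and TATAAA in 8.24% and 11.5%. CCGGAAG read on the opposite strand holds a C and pyrimidines that by themselves meet the definition of the tract, so its share and that of the tract are not independent. These matches describe the letters of the windows and are not evidence of binding.

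Total counts ranged from 13633249 to 14985715 in the Vector libraries and from 15568066 to 16691458 in the OE-MMP28 libraries. MMP28 stood at 5.17, 9.11 and 8.43 FPKM (fragments per kilobase of exon, scaled for library size) in Vector replicates 1, 2 and 3 and at 13.1, 13.9 and 15.1 FPKM in OE-MMP28. Its log2 fold change was 0.90 ± 0.19 (SE, edgeR quasi-likelihood test, adjusted p = 0.00226), and the groups did not overlap. Markers of ductal epithelium (KRT8, KRT18, KRT19, EPCAM, CDH1, MUC1 and KRT7) were all detected, with a summed level of 2592 to 3540 FPKM in Vector and 3580 to 4374 FPKM in OE-MMP28. Most of that sum is KRT8, KRT18 and KRT19, and single markers went apart, with MUC1 at 2.16, EPCAM at -0.11 and CDH1 at -0.59 as log2 fold change. Mitochondrial genes took 13.7% ± 1.62 (SD, n = 3) of Vector counts and 10.8% ± 1.71 (SD, n = 3) of OE-MMP28 counts. Summed leukocyte, endothelial and acinar markers stayed below 1 FPKM in every library, with CD3E, PRSS1 and CPA1 at 0 in all. The fibroblast list summed to 33.9 to 40.9 FPKM in Vector and 39.3 to 57.0 FPKM in OE-MMP28, nearly all of it LUM, while COL1A1, COL1A2, COL3A1 and DCN were each below 0.1 FPKM. The part of these shifts in the results below was not tested, and in bulk RNA fewer cells of a type and less RNA per cell cannot be told apart.

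Most ribosomal protein transcripts differed little between OE-MMP28 and Vector cells, and the exceptions went both ways. At an adjusted p under 0.05 in edgeR's quasi-likelihood test, adjusted over all 15319 genes tested, 10 members rose in OE-MMP28 and 3 fell, while 68 did not pass. The members that rose were RPS29, RPL35A, RPL21, RPS3, RPL26L1, RPS25, RPL22L1, RPS15A, RPL27 and RPL6. RPS24, RPS27A and RPS20 fell. RPS29 was the only member past a log2 fold change of 1 in size.

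The counts were read against those of all genes tested. The share of tested members that rose was 12.3%, beside 11.7% of all genes tested. The share that fell was 3.7%, beside 11.6% of all genes. Together 16% of the members and 23.4% of all genes were called. At the threshold the study states, p under 0.05 with an absolute log2 fold change over 1, read here as unadjusted, 1 member was higher where 3.45% of all genes were, and 0 members were lower where 5.05% of all genes were. These shares come from edgeR on counts, whereas the study names limma, so they are not the study's own gene counts. MMP28 itself, at a log2 fold change of 0.90, lies under that fold limit. Unadjusted, 15 members were higher and 6 lower at p under 0.05 with no limit on the fold change. The share of all genes at that looser cut is not given here, so these counts are not read as a lean in either direction. Scaling moved the split between the directions: upper-quartile scaling gave 7 higher and 5 lower, and TMM factors computed without the members and mitochondrial genes gave 8 higher and 5 lower. With these scalings 14.8% and 16.05% of the members were called, beside 23.2% and 23.1% of all genes tested.

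The size of the differences was modest. The median log2 fold change of the 81 members was 0.13, with an interquartile range of -0.04 to 0.26, beside a median of 0.01 over all genes tested. The median of its absolute value was 0.23 for members and 0.33 for all genes. Only 6 members moved by more than 0.5 on the log2 scale, and 48 moved by less than 0.25. The median standard error was 0.15 for the members and 0.19 for all genes. In 22 of the 81 members (27.2%) the 3 OE-MMP28 libraries lay wholly above or wholly below the 3 Vector libraries, beside 38.1% of all genes tested. Of these 22, 15 were higher and 7 lower in OE-MMP28.

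**Figure D1:**
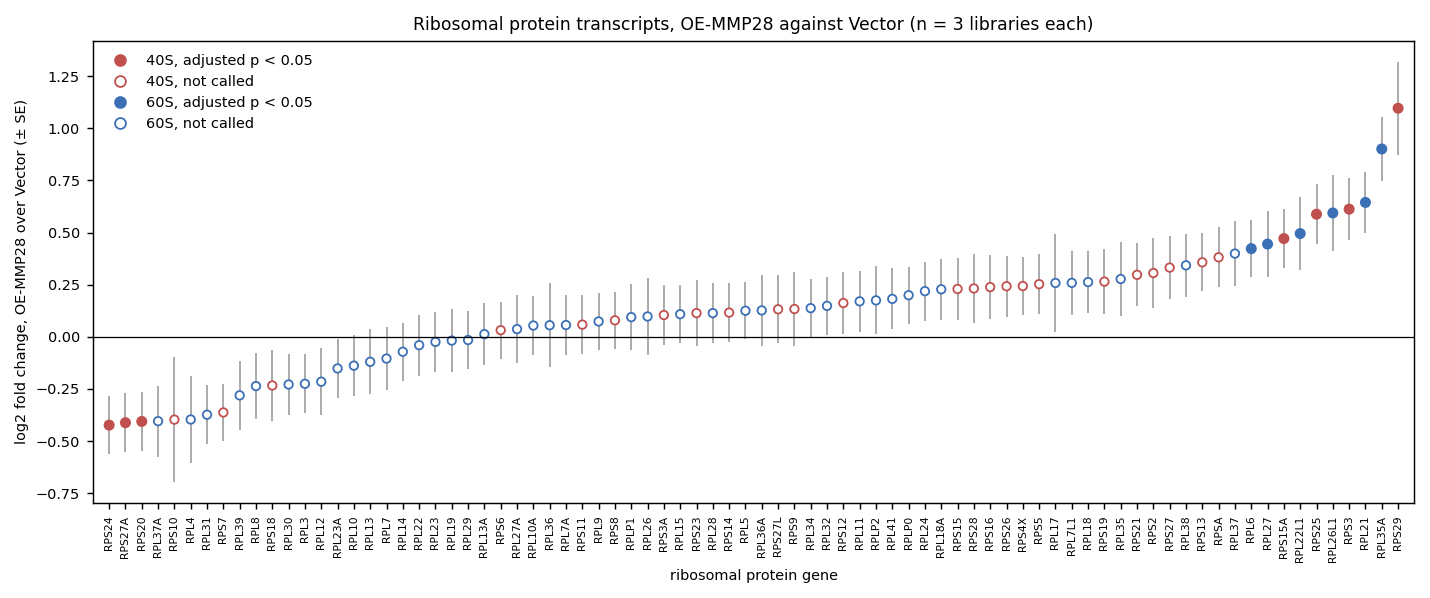
Log2 fold change of 80 of the 81 tested members between OE-MMP28 and Vector, on the vertical axis with its standard error, for genes ordered from lowest to highest along the horizontal axis. Filled points passed an adjusted p of 0.05, red stands for the 40S and blue for the 60S subunit. The values run from -0.42 for RPS24 to 1.10 for RPS29, with 3 filled points at the low end and 10 at the high end.

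By subunit, 4 of 32 tested small subunit genes rose and 3 fell, and their median log2 fold change was 0.20. Of 49 tested large subunit genes 6 rose and 0 fell in the edgeR test, with a median of 0.10. The share called was 21.9% for the small and 12.2% for the large subunit, beside 23.4% of all genes tested, and the difference between the subunits was not tested. For those falls the unadjusted count was 2, and DESeq2 and limma voom each called 1. The summed FPKM of the large subunit divided by that of the small subunit was 1.28, 1.46 and 1.29 in Vector replicates 1 to 3 and 1.26, 1.22 and 1.21 in OE-MMP28. Vector lay above OE-MMP28 in all libraries, but by a narrow margin once Vector replicate 2 is set aside.

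RPS29, a zinc-binding protein of the head of the small subunit and a Diamond-Blackfan gene, had the largest fold change of the members (chr14:49570984-49599164 on GRCh38, minus strand). Its level was 11.97, 6.70 and 10.97 FPKM in Vector and 13.99, 27.8 and 20.94 FPKM in OE-MMP28. The groups did not overlap, but the spread within each was wide, with Vector replicate 2 lowest and OE-MMP28 replicate 2 highest. The log2 fold change was 1.10 ± 0.22 (SE, edgeR, adjusted p = 0.00148). It passed the edgeR test with each library left out in turn, and missed the threshold with limma on log2(FPKM + 1), where the adjusted p was 0.0502 within a range up to 0.151 over all alternatives.

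RPS3, which lines the entry channel for mRNA, and RPS25, a surface protein of the head that certain viral mRNAs need, are both on chromosome 11 and both rose. RPS3 (chr11:75399486-75422280, plus strand) stood at 291.5, 238.0 and 258.7 FPKM in Vector and 341.1, 426.1 and 426.9 FPKM in OE-MMP28. The difference on the log2 scale was 0.61 ± 0.15 (SE, edgeR, adjusted p = 0.00551). RPS25 (chr11:119015712-119018691, minus strand) stood at 434.6, 398.0 and 389.2 FPKM in Vector and 570.2, 572.9 and 678.2 FPKM in OE-MMP28. This was a log2 fold change of 0.59 ± 0.14 (SE, edgeR, adjusted p = 0.0054). Neither gene overlapped between groups, and both passed with each library left out. Exons of TRAPPC4 on the other strand cover 17.6% of the exon length of RPS25, and whether the counting used the strand is not given in the sources used here.

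RPS15A, a core small subunit protein that binds ribosomal RNA, rose by less (chr16:18781295-18790383, minus strand). It stood at 30.5, 27.9 and 28.2 FPKM in Vector and 39.6, 36.2 and 43.3 FPKM in OE-MMP28, without overlap. On the log2 scale it rose by 0.47 ± 0.14 (SE, edgeR, adjusted p = 0.0209). The call was lost without Vector replicate 3, OE-MMP28 replicate 2 or OE-MMP28 replicate 3, with adjusted p-values of 0.102, 0.0524 and 0.0721.

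The 3 members that fell all belong to the small subunit, and each fell by about the same amount. RPS24, a Diamond-Blackfan gene (chr10:78033732-78056813, plus strand), stood at 116.3, 103.7 and 113.2 FPKM in Vector and 87.1, 74.3 and 85.3 FPKM in OE-MMP28. The fold change on the log2 scale was -0.42 ± 0.14 (SE, edgeR, adjusted p = 0.0326). RPS27A, which is translated as a fusion with ubiquitin (chr2:55231903-55235853, plus strand), stood at 276.0, 225.6 and 226.4 FPKM in Vector and 187.8, 177.4 and 178.0 FPKM in OE-MMP28. For RPS27A the log2 fold change was -0.41 ± 0.14 (SE, edgeR, adjusted p = 0.0401). RPS20, a protein of the head of the small subunit encoded on chromosome 8, stood at 213.0, 220.8 and 227.9 FPKM in Vector and 154.5, 159.1 and 181.8 FPKM in OE-MMP28. Its log2 fold change was -0.41 ± 0.14 (SE, edgeR, adjusted p = 0.0417).

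In none of RPS24, RPS27A and RPS20 did the groups overlap, yet each call depended on single libraries. RPS24 was lost without Vector replicate 1 (adjusted p = 0.0744), Vector replicate 3 (0.125) or OE-MMP28 replicate 2 (0.156) in edgeR. RPS27A was lost without Vector replicate 1 (adjusted p = 0.157), Vector replicate 3 (0.0827), OE-MMP28 replicate 2 (0.126) or OE-MMP28 replicate 3 (0.0849). RPS20 was lost in edgeR without any of the libraries except OE-MMP28 replicate 3, with adjusted p-values from 0.0506 to 0.162.

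Among large subunit genes the clearest change was in RPL35A, a Diamond-Blackfan gene whose product takes part in maturation of large subunit RNA (chr3:197949980-197956610, plus strand). It stood at 120.9, 87.5 and 103.5 FPKM in Vector and 171.3, 205.0 and 200.9 FPKM in OE-MMP28, so that every OE-MMP28 library lay well above every Vector library. The log2 fold change was 0.90 ± 0.15 (SE, edgeR, adjusted p = 0.00035). RPL35A was the only called member that passed in all 21 alternative settings, where its log2 fold change ran from 0.50 to 1.02.

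RPL21, mutated in an inherited form of hair loss, also rose (chr13:27251309-27256691, plus strand). It stood at 114.8, 103.1 and 97.4 FPKM in Vector and 147.1, 169.7 and 171.7 FPKM in OE-MMP28, without overlap. Its log2 fold change was 0.64 ± 0.14 (SE, edgeR, adjusted p = 0.00314), and the call held with each library left out. RPL21 has 66 processed pseudogenes by symbol, whose counts came to 19.99% of its own. Adding those counts lowered the log2 fold change to 0.38 (edgeR, adjusted p = 0.0921), which is the highest adjusted p over the alternatives.

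RPL27 and RPL6 passed the threshold by less. RPL27, a Diamond-Blackfan gene (chr17:42998273-43002959, plus strand), stood at 164.9, 123.6 and 145.9 FPKM in Vector and 161.6, 207.7 and 216.5 FPKM in OE-MMP28. OE-MMP28 replicate 1 lay below Vector replicate 1, so this was the one called member whose groups overlapped. Its log2 fold change was 0.44 ± 0.16 (SE, edgeR, adjusted p = 0.0477), and it was lost without Vector replicate 2, Vector replicate 3, OE-MMP28 replicate 2 or OE-MMP28 replicate 3, with adjusted p-values from 0.123 to 0.192. RPL6 (chr12:112405190-112418838, minus strand) stood at 310.9, 283.2 and 320.0 FPKM in Vector and 421.5, 385.2 and 409.8 FPKM in OE-MMP28, without overlap. Its log2 fold change was 0.42 ± 0.14 (SE, edgeR, adjusted p = 0.0296), and leaving out any library except Vector replicate 1 raised the adjusted p to between 0.0636 and 0.0760.

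**Figure D2:**
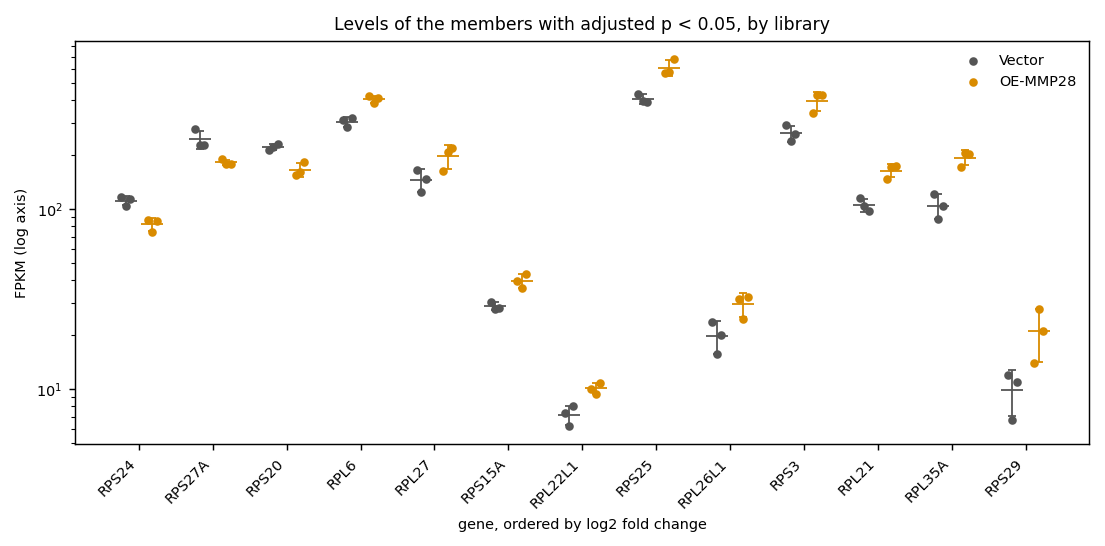
Level in FPKM, on a log axis, of the 13 members with an adjusted p under 0.05, in the order of their log2 fold change. Points are single libraries, grey for Vector and orange for OE-MMP28 (n = 3 each), with the mean and SD as a bar. The groups are apart in every gene shown except RPL27, and RPS29 has the widest relative spread, from 6.70 to 27.8 FPKM.

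RPS6, RPS19, RPSA, RPL5, RPL11 and the P stalk genes were looked at for their known roles, whatever their values, and did not pass. RPS6, the substrate of the S6 kinases, stood at 157.7, 156.9 and 162.2 FPKM in Vector and 164.0, 154.2 and 165.6 FPKM in OE-MMP28, which makes it one of the steadiest members, and its log2 fold change was 0.03 ± 0.14 (SE). RPS19, the gene most often mutated in Diamond-Blackfan anaemia, had a log2 fold change of 0.26 ± 0.16 (SE, edgeR, adjusted p = 0.236). RPSA, also known as the laminin receptor precursor, ranged from 145.5 to 170.1 FPKM in Vector and from 181.5 to 218.6 FPKM in OE-MMP28 without overlap, with a log2 fold change of 0.38 ± 0.14 (SE, edgeR, adjusted p = 0.0597).

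RPL5 and RPL11 form, with 5S RNA, the particle that binds MDM2 when ribosome assembly is disturbed. Their log2 fold changes were 0.13 ± 0.14 and 0.17 ± 0.15 (SE), and both overlapped between groups. The P stalk, which recruits elongation factors to the large subunit, is made of RPLP0, RPLP1 and RPLP2. RPLP0 stood at 434.1, 423.3 and 445.2 FPKM in Vector and 459.7, 494.4 and 529.5 FPKM in OE-MMP28 without overlap, with a log2 fold change of 0.20 ± 0.14 (SE, edgeR, adjusted p = 0.316). RPLP1 and RPLP2 overlapped, at 0.09 ± 0.16 and 0.17 ± 0.16 (SE) on the log2 scale. In neither the 5S particle nor the P stalk did edgeR call any gene, the count at an unadjusted p under 0.05 was also 0, and DESeq2 and limma voom called 0.

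The 19 Diamond-Blackfan genes were all tested. RPS29, RPL35A, RPS15A and RPL27 rose and RPS24 fell, and the median log2 fold change of the 19 was 0.23. The 5 called genes are 26.3% of the 19, beside 23.4% of all genes tested.

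Levels between genes, compared per kilobase in FPKM, spanned almost 3 orders of magnitude. The lengths used cover all annotated exons of a gene, such as 1088 bases for RPL41 and 9845 for RPS29. The order of the genes therefore depends on the annotation as well as on the counts. The mean over the 6 libraries ran from 1.28 FPKM for RPS10 to 1059 FPKM for RPL41, the smallest of the ribosomal proteins, with a median of 160.1 FPKM, and 59 of the 81 tested members lay above 100 FPKM. After RPL41 came RPS2 at 809.3, RPS12 at 709.9, RPL8 at 688.5 and RPL7A at 678.0 FPKM. None of these 5 passed the test, with log2 fold changes of 0.18, 0.31, 0.16, -0.24 and 0.06 in that order. Each of the 5 overlapped between groups.

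Among the lowest tested members were RPS10 at 1.28, RPL17 at 2.58, RPS27L at 5.48 and RPL36A at 6.81 FPKM. RPS27L is a paralogue, whereas the other 3 encode proteins of every ribosome. Exons of a second gene overlap those of each of these 3, RPS10-NUDT3 over 39.4% of the exon length of RPS10, RPL17-C18orf32 over 24.8% of RPL17 and RPL36A-HNRNPH2 over 8.4% of RPL36A. These 3 overlapping genes were listed at 0 in every library. For RPS10, 11 processed pseudogenes held 72.9% as many counts as the gene itself. How reads shared by these genes were counted is not given in the sources used here, and the part of sharing in the low levels was not tested. Over the members with a pseudogene by symbol, 77 in all, the median of pseudogene counts over own counts was 0.25%, and 13 members exceeded 5%.

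The members that did not pass the filter were RPL3L, RPL10L, RPL39L, RPS4Y1 and RPS4Y2. RPL3L, a paralogue of striated muscle, had 4, 7 and 14 counts in Vector and 2, 0 and 0 in OE-MMP28. RPL39L, a testis paralogue, had a single count in 1 library, and RPL10L, also of testis, had none. Without the filter RPL3L was called lower in OE-MMP28 (edgeR, adjusted p = 0.0079) and is 1 of the 2 falls counted in that setting, although these counts are too few to read a level from.

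The paralogues that were expressed stood higher against their partners in OE-MMP28 for 4 of 5 pairs. RPL22L1, which takes the place of RPL22 in part of the ribosomes and regulates splicing, was at 15.2%, 15.5% and 18.1% of the FPKM of RPL22 in Vector and at 25.9%, 22.1% and 23.1% in OE-MMP28. The log2 ratio rose from -2.62 ± 0.14 to -2.08 ± 0.12 (SD, n = 3 each), with no overlap. RPL22L1 itself (chr3:170864875-170870483, minus strand) went from 7.31, 6.24 and 7.99 to 10.03, 9.38 and 10.7 FPKM, while RPL22 had a log2 fold change of -0.04 ± 0.15 (SE). The log2 fold change of RPL22L1 was 0.50 ± 0.17 (SE, edgeR, adjusted p = 0.0449), and this call was lost without any 1 of the 6 libraries, with adjusted p-values from 0.0620 to 0.156.

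RPL26L1, whose product differs little from RPL26, was at 78.3%, 92.3% and 76.6% of RPL26 in Vector and at 130.2%, 96.0% and 117.3% in OE-MMP28. These percentages of FPKM use annotated exon lengths of 1164 bases for RPL26L1 and 2513 bases for RPL26. By counts, RPL26L1 lay below RPL26 in every library. RPL26L1 (chr5:172958729-172969771, plus strand) went from 23.6, 15.6 and 19.8 to 31.7, 24.4 and 32.4 FPKM, a log2 fold change of 0.59 ± 0.18 (SE, edgeR, adjusted p = 0.0228), and RPL26 had one of 0.10 ± 0.18 (SE). The call for RPL26L1 was lost without Vector replicate 2, Vector replicate 3, OE-MMP28 replicate 1 or OE-MMP28 replicate 3, with adjusted p-values from 0.0629 to 0.0986. The log2 ratio of RPL26L1 to RPL26 was -0.28 ± 0.15 in Vector and 0.18 ± 0.22 in OE-MMP28 (SD, n = 3 each). Here Vector replicate 2 and OE-MMP28 replicate 2 lay close together, at -0.12 and -0.06.

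RPL7L1, a nucleolar relative of RPL7, was at 7.84%, 7.86% and 6.30% of RPL7 in Vector and at 9.96%, 9.35% and 8.77% in OE-MMP28. RPL36AL, which the choice by symbol left out, was at 2283% to 3698% of RPL36A in Vector and at 3871% to 4498% in OE-MMP28. RPS27L, a target of p53, was at 1.15%, 1.64% and 1.84% of RPS27 in Vector and at 1.63%, 0.99% and 1.42% in OE-MMP28, with overlap. Such percentages of FPKM depend on the annotated exon lengths, here 9127 bases for RPS27L and 1035 for RPS27. In counts, RPS27L had 646, 638 and 801 in Vector, beside 6354, 4415 and 4947 for RPS27. The lengths set the level of a ratio but not its difference between the groups. The differences in log2 ratio were 0.54 for RPL22L1, 0.57 for RPL36AL, 0.47 for RPL26L1, 0.36 for RPL7L1 and -0.20 for RPS27L. A two-sided exact permutation test of each ratio gave p = 0.1 for the first 4, the smallest p that 3 against 3 libraries allow, and p = 0.5 for RPS27L. Adjusted over the 5 pairs these were 0.125 and 0.5, so no pair could pass 0.05 in this design. RPL36A was among the members with low counts. Pseudogene counts came to 22.56% of own counts for RPL7, 16.05% for RPL26 and 10.01% for RPL22. The difference for RPS27L was 0.01 without OE-MMP28 replicate 2.

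**Figure D3:**
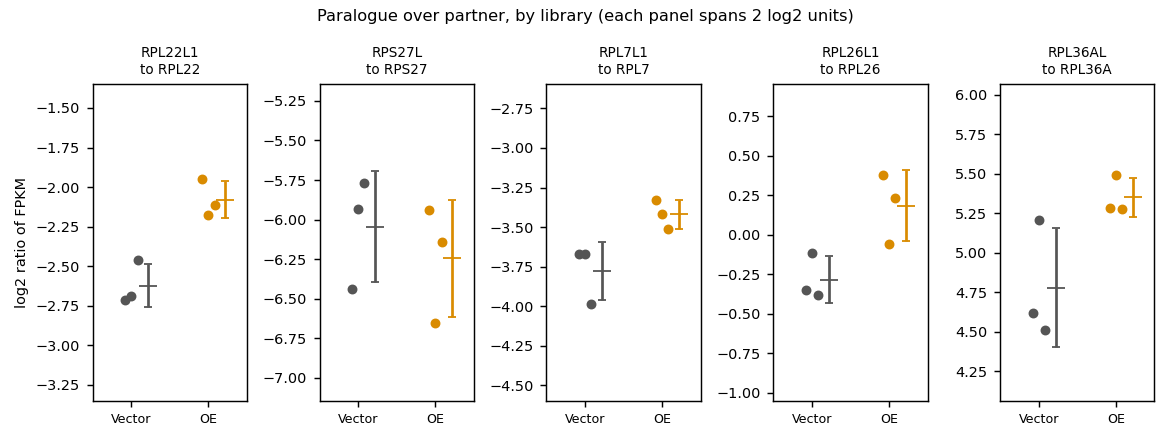
Log2 ratio of the FPKM of a paralogue to that of its partner in each library, with Vector in grey and OE-MMP28 in orange and the mean ± SD beside the points (n = 3 each). Every panel spans 2 log2 units, on its own range. The groups are apart in all pairs except RPS27L to RPS27.

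The differences of many members resembled those of the genes around them. For each member the median log2 fold change was taken over tested genes within 10 Mb that are not members, between 34 and 434 genes. These medians ran from -0.58 near RPL7 to 0.60 near RPS29. All 13 called members had the sign of their neighbours' median, but so did most of the other tested members. Near RPL27 and RPL26L1 that median was only 0.01 and 0.02. Across the 81 members the Pearson correlation with the neighbours' median was 0.71 and the Spearman correlation 0.49, given as a description, since the points share libraries and nearby members share neighbours.

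Chromosome 2 shows this most plainly. RPS27A, RPS7, RPL31 and RPL37A lie apart on that chromosome, and their log2 fold changes were -0.41, -0.36, -0.37 and -0.40. Their neighbours' medians were -0.45, -0.42, -0.42 and -0.34. RPS7 stood at 107.4, 102.8 and 110.8 FPKM in Vector and 80.2, 78.6 and 89.0 FPKM in OE-MMP28, and RPL31 at 125.7, 115.3 and 117.2 against 84.1, 89.6 and 100.4 FPKM. Neither of these 2 overlapped between groups, with adjusted p-values of 0.0638 and 0.0606 (edgeR). On chromosome 8, RPS20, RPL7, RPL30 and RPL8 lay between -0.41 and -0.10, with neighbours between -0.58 and -0.27. The 12 members on chromosome 19, in contrast, lay between 0.01 and 0.26, with adjusted p-values of 0.215 or more (edgeR).

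The size of the neighbours' shift differed between called members. RPS24 at -0.42 had neighbours at -0.40, RPS25 at 0.59 had neighbours at 0.49 and RPL22L1 at 0.50 had neighbours at 0.51. RPS29 and RPL35A exceeded their neighbours, at 1.10 against 0.60 and 0.90 against 0.40. RPL26L1, RPL27 and RPL21 rose where the neighbours were at 0.02, 0.01 and 0.12. RPLP0 and RPL13 moved less than their surroundings, at 0.20 against 0.35 and -0.12 against -0.35.

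When the neighbours' median was taken off as an offset in the fit, 4 members were called higher and 0 lower (edgeR, with 10 higher and 0 lower at an unadjusted p under 0.05). The 4 calls are 4.94% of the members, beside 15.2% of all genes tested that were called with this offset. RPL35A, RPL21 and RPL26L1 remained among the 4, with log2 differences from their neighbours of 0.50, 0.53 and 0.57 (edgeR, adjusted p = 0.0333, 0.0175 and 0.0397). The remaining call was RPL7, which differed from its neighbours by 0.47 (edgeR, adjusted p = 0.0366) although its own log2 fold change was -0.10 ± 0.15 (SE). RPL7 has 61 processed pseudogenes by symbol, whose counts came to 22.56% of its own. The neighbours' medians came from these same libraries and entered the fit as fixed values. The p-values with this offset therefore leave out the error of the medians and the spread among the neighbouring genes. RPS24, RPS27A and RPS20 were at -0.02, 0.04 and -0.06 relative to their neighbours, and RPS25 at 0.09. RPS29 was at 0.50 (adjusted p = 0.139) and RPS3 at 0.26 (adjusted p = 0.266). The cause of the regional shifts was not tested.

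**Figure D4:**
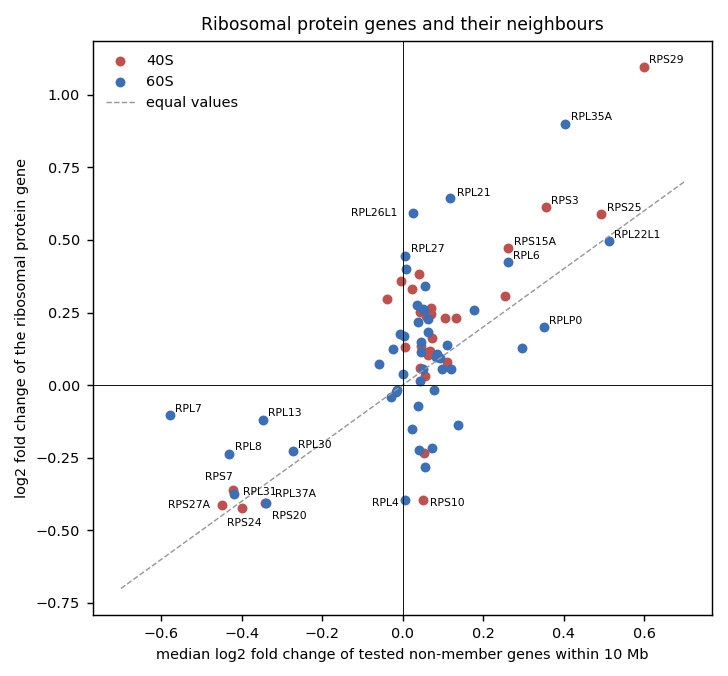
Log2 fold change of 80 of the 81 tested members (vertical axis) against the median log2 fold change of tested genes within 10 Mb that are not members (horizontal axis). Red marks 40S and blue 60S genes, and the dashed line marks equal values. The members on chromosome 2 (RPS27A, RPS7, RPL31, RPL37A) lie near the line at about -0.4, RPS25 and RPL22L1 lie near it at the upper right, and RPL21, RPL26L1 and RPL27 stand above neighbours near 0.

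Called members were found both with and without a tract at the start of transcription. A tract was found for 58 tested members, of which 5 rose and 2 fell, with a median log2 fold change of 0.11, where 11.7% of all genes tested rose and 11.6% fell. No tract was found for 8, of which RPS29, RPL26L1, RPL27 and RPL6 rose, and all 8 had a positive log2 fold change, with a median of 0.34. RPL27 lacks a tract only by the limit of 10 bases, since a C with a run of pyrimidines begins just beyond it in the window shown. The paralogues RPL26L1, RPL7L1 and RPS27L are among the 8. The 8 had a lower level, with a median of 23.1 FPKM against 187.9 FPKM. The annotated start of a gene need not be the one these cells use. The difference between the 2 sets was not tested.

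The summed counts of the members came to 5.04% ± 0.12 (SD, n = 3) of all counts in Vector, from 4.90% to 5.13%, and to 5.27% ± 0.48 (SD, n = 3) in OE-MMP28, from 4.77% to 5.72%, so that the groups overlapped. OE-MMP28 replicate 3 was the highest library for 41 of the 81 members by FPKM and the lowest for 1. Vector replicate 2 was the lowest for 31 and the highest for 14.

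Vector replicate 2 stood apart from the other Vector libraries in a gene by gene manner. Against their mean, 14 members were more than 1.2 times as high in it and 8 were below 0.8 times. RPL4 stood at 521.5 FPKM there, beside 251.5 and 252.4 FPKM in the other Vector libraries and 248.7 to 263.1 FPKM in OE-MMP28. RPS18 stood at 882.9 FPKM beside 571.5 and 597.8, and RPL36 at 124.9 beside 80.0 and 69.0 FPKM. RPS29 and RPL26 were low in it, at 6.70 and 16.9 FPKM. With Vector replicate 2 left out, 7 members were called higher and 2 lower, or 11.1% of the members beside 18.7% of all genes tested.

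**Figure D5:**
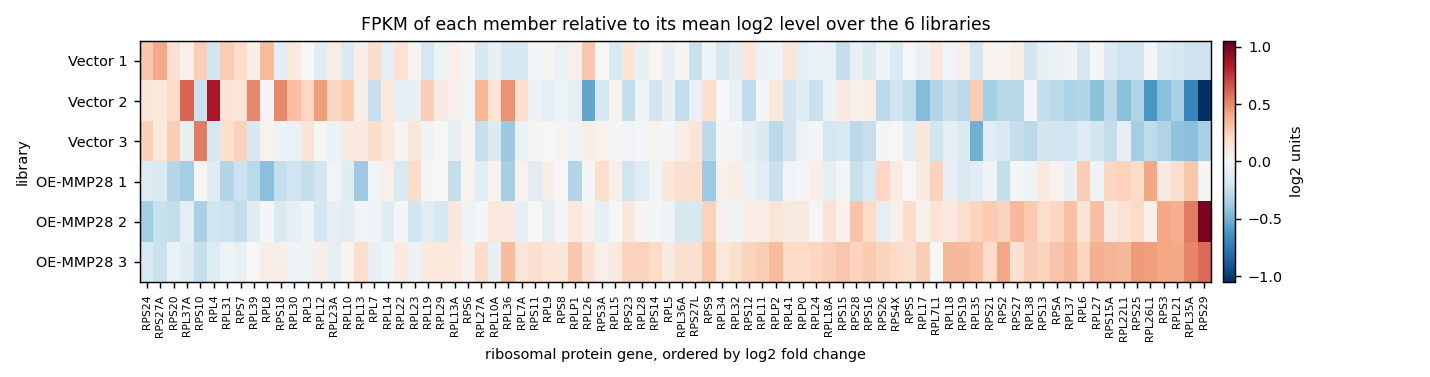
FPKM of 80 of the 81 tested members in each library, as the log2 difference from the gene's mean over the 6 libraries, red for higher and blue for lower. Rows are libraries and columns are genes in the order of their log2 fold change. The strongest colours are RPL4 (high) and RPS29 (low) in Vector 2 and RPS29 (high) in OE-MMP28 2, and OE-MMP28 3 is above the mean for most genes.

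Other genes of the pathway were taken from lists chosen by function. Of 4 remaining ribosome genes outside the symbols used, 1 rose, which was RPL36AL. It went from 179.6 ± 25.4 to 287.3 ± 14.5 FPKM (SD, n = 3), or by 0.69 ± 0.15 on the log2 scale (SE, edgeR, adjusted p = 0.00231), with neighbours at 0.60.

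Translation genes whose mRNAs also carry a TOP tract include elongation factors. Of 19 tested, 0 rose in edgeR (1 at an unadjusted p under 0.05, 1 in DESeq2, 0 in limma voom) and 2 fell, or 10.5% beside the 11.6% of all genes that fell. EEF1B2, an exchange factor for elongation, fell with a log2 fold change of -0.46 ± 0.16 (SE), and PABPC1, which coats poly(A) tails, with -0.44 ± 0.14 (SE). Their neighbours were at -0.41 and -0.23. The list's median was -0.11. In edgeR 1 fell without Vector replicate 2, Vector replicate 3 or OE-MMP28 replicate 1, and 0 fell without OE-MMP28 replicate 2 or OE-MMP28 replicate 3.

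Host genes of small nucleolar RNAs carry guides for ribosomal RNA modification in their introns. Those listed here encode no conserved protein, except TAF1D, which encodes a factor of RNA polymerase I and had a log2 fold change of 0.36. Of 14 tested, 5 fell (35.7%, beside 11.6% of all genes tested), with a median over the list of -0.34. ZFAS1 went from 51.5 ± 1.17 to 30.5 ± 2.71 FPKM (SD, n = 3), which is -0.74 ± 0.15 as log2 fold change (SE, edgeR, adjusted p = 0.0011). SNHG6 was at -0.58, SNHG29 at -0.56, EPB41L4A-AS1 at -0.50 and GAS5 at -0.48. Neighbours of ZFAS1, SNHG29, EPB41L4A-AS1 and GAS5 were at -0.07, 0.08, -0.06 and 0.11, and those of SNHG6 at -0.44. None of the 14 rose in edgeR (1 at an unadjusted p under 0.05, 0 in DESeq2 and in limma voom). The count of 5 fell to 3 without Vector replicate 3 and to 2 without OE-MMP28 replicate 2.

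Among 39 ribosome assembly factors, which process ribosomal RNA and join the proteins to it, 10 rose and 1 fell. By direction, 11.7% of all genes tested rose and 11.6% fell. Both directions together gave 28.2% of the list, beside 23.4% of all genes tested. The largest rises were in LSG1 at 0.82 ± 0.15 and NMD3 at 0.67 ± 0.16, which act together in the export and last maturation of the large subunit, in UTP20 at 0.69 ± 0.18, in GRWD1 at 0.65 ± 0.18 and in MRTO4 at 0.62 ± 0.16 (log2 fold change ± SE). NOB1, the nuclease that completes small subunit RNA, fell with a log2 fold change of -0.52 ± 0.16 (SE, edgeR, adjusted p = 0.0213), with neighbours at -0.37. The median of the list was 0.25. The count of 10 depended on single libraries, at 16 without Vector replicate 1, 6 without Vector replicate 2, 3 without Vector replicate 3, 4 without OE-MMP28 replicate 2 and 5 without OE-MMP28 replicate 3. LSG1 and NMD3 had neighbours at 0.39 and 0.51, while those of UTP20, GRWD1 and MRTO4 were at 0.20, 0.05 and -0.0004.

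In the other lists the share called was below the 23.4% of all genes tested, at 11.1% for RNA polymerase I and its factors, 17.6% for regulators of TOP mRNAs and 10% for hibernation factors and chaperones. RNA polymerase I and its factors had 2 of 18 higher, POLR2H at 0.55 with neighbours at 0.51 and POLR2L at 0.53 with neighbours at -0.02, which are shared with the other polymerases. Among 17 regulators of TOP mRNAs, RPS6KB2 (an S6 kinase, 0.65) and EIF4E (the cap-binding protein, 0.58) rose, while EIF4EBP2, an inhibitor of EIF4E, fell from 32.5 ± 1.38 to 19.1 ± 3.27 FPKM (SD, n = 3), which is -0.76 ± 0.15 as log2 fold change (SE, edgeR, adjusted p = 0.00136). Of 10 hibernation factors and ribosome-associated chaperones, PELO, which rescues stalled ribosomes, rose with a log2 fold change of 0.85 ± 0.17 (SE, edgeR, adjusted p = 0.00147). Neighbours of RPS6KB2, EIF4E, EIF4EBP2 and PELO were at 0.30, 0.14, -0.39 and 0.08.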

How the data were processed

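RNA of 6 AsPC-1 libraries (3 Vector, 3 OE-MMP28) was analysed, grouped by the labels of the samples, which also number the replicates. The authors deposited read counts per gene, not normalized and not pooled, and FPKM scaled by gene length and library total. The submitters' processing notes name HISAT2 2.0.5 and featureCounts 1.5.0-p3. Their treatment of strand and of reads with several matches is not given in the sources used here. Gene coordinates and lengths (other values) in the deposited table matched GENCODE release 29 (GRCh38) for all 58735 genes. Deposited columns of the authors' own comparison (fold changes and p-values) were not used.

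Counts were tested with edgeR 4.0.16 in R 4.3.3 by the quasi-likelihood test, after filterByExpr (minimum count 10, minimum total 15), with TMM scaling, group as the only term and Benjamini-Hochberg adjustment over all genes tested. The study's methods name limma, which was an alternative here. FPKM were used for levels and paralogue ratios, the latter compared by two-sided exact permutation where both genes had a mean of at least 0.5 FPKM. Groups were said not to overlap on log2 CPM (prior count 2). Alternatives were each library left out, the replicate block, other scalings, filters and gene sets, DESeq2 1.42.0, limma 3.58.1 (voom, or log2(FPKM + pseudocount)), an offset for gene length and GC content, an offset for neighbouring genes and counts summed with processed pseudogenes. GC content came from transcripts, and no genome was used here.

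The members, lists and tests were chosen with earlier results of these data known. Named genes were MMP28, members past the test, the 5 highest and 5 lowest tested members, paralogue pairs, members below the filter, a set of well-known members, and up to 5 genes per other list and direction. RPS7, RPL31, RPL37A, RPL30, RPL13, RPL4, RPS18, RPL36, TAF1D and cell type markers were named outside this rule, after their values were seen. Some genes under this rule are not reported here, and the plots leave out 1 tested member. Scripts were tested on simulated counts. Total counts of 13633249 to 16691458 per library set the precision.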

Additional observations from a re-analysis of the deposited data

How the results depend on the processing

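Counts of members called higher and lower were 10 and 3. With single libraries left out they ran from 5 to 11 higher and from 0 to 3 lower, with 5 and 0 without Vector replicate 3, 6 and 0 without OE-MMP28 replicate 2 and 5 and 3 without OE-MMP28 replicate 3. Same-numbered libraries did not deviate together (correlations of 0.02, 0.01 and -0.09). These correlations cannot show whether same-numbered libraries shared a culture or day, and no label says so. The replicate block gave 9 and 1. Upper-quartile scaling gave 7 higher and 5 lower. The scaling without members and mitochondrial genes, and that without mitochondrial genes alone, gave 8 and 5 each. Testing protein-coding genes only gave 9 and 5, DESeq2 12 and 5 and the offset for gene length and GC content 13 and 6. limma on log2(FPKM + 1) gave 5 and 0, with a pseudocount of 0.1 it gave 6 and 0, and without a filter on low values 1 and 0. The offset for neighbouring genes gave 4 and 0. Where 0 were called lower, the count at an unadjusted p under 0.05 was 0 with that offset and 5 to 7 otherwise. The share of all genes called moved with the setting too. It ran from 2.19% for limma without a filter to 31.9% with the offset for gene length and GC content. In those settings 1.2% and 23.5% of the members were called. The members' share lay below that of all genes tested in every setting except edgeR without the filter on low counts. There it was 12.05%, beside 11.88% of all genes. The cause of these moves was not tested.

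The median log2 fold change of the members stayed between 0.07 and 0.15 over all 21 alternatives. All 13 members called in the main test were also called by DESeq2 and by limma voom. Directions of the 13 called members held except with the offset for neighbouring genes, where RPL22L1 stood at -0.018 and RPS27A at 0.037. The share of counts in the members was 5.85% in Vector and 5.91% in OE-MMP28 without mitochondrial genes, and 5.19% in Vector with pseudogenes added. Differences in paralogue ratio moved by less than the spread between replicates in every alternative run for them. Those were counts in place of FPKM, a pseudocount of 1 FPKM, sums with pseudogenes and single libraries left out. The offset for neighbouring genes was not applied to the ratios, although RPL22L1 itself stood at -0.018 with it. The effect of depth was not tested, and RPL3L, RPL39L and RPL10L were too low to compare.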
